A study of Homo sapiens with 3 samples.

Results

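The S100 genes encode small EF-hand calcium-binding proteins. The members were the rows of the deposited gene table whose gene name was S100A2, S100A3, S100A4, S100A6, S100A8, S100A9, S100A10, S100A14, S100A16 or S100P, 10 of 50867 genes, and they were selected on their measured levels and fold changes in these same libraries, S100A4 also for a course opposite to that of other mesenchymal genes. All values of members against the control are therefore given as a description, without a test. The material was UM-UC-3, a cell line established from a human bladder carcinoma, sequenced as 3 polyA+ libraries. The cells carried a lentiviral hairpin against the long non-coding RNA BLACAT2 (group shBLACAT2, n = 2, with hairpin 1 as shRNA 1 and hairpin 2 as shRNA 2) or a scramble hairpin (group shControl, n = 1, called the control here). All 3 lines had been infected with lentivirus in the presence of polybrene and kept under puromycin as stable lines, and each was represented by 1 library. The aim was to find genes whose expression depends on BLACAT2.

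Most S100 proteins bind calcium through a pair of EF-hand motifs, usually as dimers, and then expose a surface that binds target proteins. Inside cells S100 proteins act on the cytoskeleton, annexins and p53, and several are also released and signal through the receptors AGER (RAGE) and TLR4. Most of the human genes lie together on chromosome 1, beside genes of the epidermal cornified envelope, and several are used as markers in bladder and other epithelial cancers. S100A4 is also known as fibroblast-specific protein and is widely used as a marker of mesenchymal cells.

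The libraries held 17670199 counts with shRNA 1, 16216947 with shRNA 2 and 16424422 in the control. Levels were scaled with edgeR's TMM factors to CPM, counts scaled to a common library size (scaled CPM). BLACAT2, listed as LINC00958 (ENSG00000251381; hg38, chromosome 11, 12961842 to 12989548), had 816 counts with shRNA 1, 1062 with shRNA 2 and 938 in the control. Its scaled level over the control was 0.735 with shRNA 1 (95% counting interval 0.668 to 0.808) and 0.996 with shRNA 2 (0.911 to 1.09). The library labelled shRNA 2 thus held as much of the transcript as the control, although its label names a hairpin against BLACAT2. Every direction below therefore belongs to a labelled library. Urothelial markers were present only in part. With shRNA 1, with shRNA 2 and in the control, GATA3 had 1389, 1192 and 538 counts and KRT7 20236, 13229 and 19944. UPK1A and UPK3A had 0, 1 and 1 counts each in that order, and KRT20 was at 0 in all 3. GATA3, KRT7, KRT20, UPK1A and UPK3A were chosen after their values were seen. Of 12 urothelial markers 9 passed the filter described below. UPK1B (2311, 923 and 306 counts) and UPK2 (108, 104 and 35) were past the 2-fold size upward with both hairpins, and TP63 (8, 13 and 85) downward. That is 22.2% and 11.1% of the 9, against 5.29% and 4.50% of all tested genes.

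Promoter sequence is shown for the 4 members that carry the main contrasts: S100A9, higher with both hairpins; S100A4 and S100A3, which lie next to each other and had opposite courses; and S100A2, lower with both. The stretches come from RefSeq (GRCh38.p14), lie within the 250 bases before the RefSeq transcription start, and leave out every base that GENCODE release 29 places in an exon. They run 5′ to 3′ on the gene's strand. Capitals mark matches, on either strand, to the TATA box letters TATAAA, or to TGANTCA (AP-1), CAGGTG (the E-box read by SNAI and ZEB factors), TTNNGNAA (C/EBP) or GGGCGG (GC box). The interferon response element was searched as well. The stretches were chr1:153357604-153357853 on the plus strand for S100A9, and on the minus strand chr1:153545886-153546056 for S100A4, chr1:153549373-153549508 for S100A3 and chr1:153565866-153566094 for S100A2.
S100A9: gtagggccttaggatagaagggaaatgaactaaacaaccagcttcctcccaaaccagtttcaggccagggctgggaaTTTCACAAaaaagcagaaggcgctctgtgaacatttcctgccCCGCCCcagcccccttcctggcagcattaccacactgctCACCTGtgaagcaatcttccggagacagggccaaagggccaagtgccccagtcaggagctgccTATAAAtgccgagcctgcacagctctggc
S100A4: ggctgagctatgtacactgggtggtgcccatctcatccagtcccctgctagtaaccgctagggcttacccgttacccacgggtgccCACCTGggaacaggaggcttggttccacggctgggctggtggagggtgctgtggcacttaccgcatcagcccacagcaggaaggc
S100A3: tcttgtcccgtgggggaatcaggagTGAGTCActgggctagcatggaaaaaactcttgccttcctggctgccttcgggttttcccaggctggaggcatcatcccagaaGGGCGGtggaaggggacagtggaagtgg
S100A2: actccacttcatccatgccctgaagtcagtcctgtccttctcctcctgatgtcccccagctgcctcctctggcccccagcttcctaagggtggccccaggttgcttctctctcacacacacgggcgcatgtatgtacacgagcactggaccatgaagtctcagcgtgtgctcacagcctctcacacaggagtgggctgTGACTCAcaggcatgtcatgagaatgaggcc

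All 10 members had at least 1 promoter window in RefSeq, and members with several starts had several windows, some of them overlapping. The E-box letters were found in a window of 7 of the 10 members, against 20.6% of the 27305 genes with a window. S100A10, S100A6 and S100A3 had no such match. TATAAA was found for 4 members (13% of genes), TGANTCA for 2, S100A3 and S100A2 (8.06%), TTNNGNAA for 5 (38.1%), GGGCGG for 5 (46.2%) and the interferon response element for 0 (3.71%). S100A4 also had TATAAA 31 to 26 bases before its start, outside the printed stretch. S100A2 had the E-box letters 18 to 13 bases before another of its RefSeq starts, likewise outside the printed stretch. These are matches of letters and not measured binding.

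By level, the members fell into a group that was higher with both hairpins, a group that was lower, mainly with shRNA 2, and S100A6, which went opposite ways. A gene was called at least 2-fold higher or lower when the log2 folds of both hairpins were past 1 in the same direction. Tests took in genes averaging 1 CPM or more over the libraries, which left 9 members and 15132 genes in all, of which 9.79% were past the size in either direction. Of the 9, S100A9, S100P and S100A4 passed the 2-fold size upward, against 5.29% of all tested genes, and 0 passed it downward, against 4.50%. S100A4 lay just inside that size and S100A14 just outside it. S100A8 was under the filter and is described by its counts. In bulk RNA, fewer cells that express a gene and less RNA per cell cannot be told apart. No label speaks of repeated cultures, so p-values measure only the spread between these libraries, which may be technical. Intervals given here cover counting error only. The ± values are the SD between the hairpins' log2 folds over the same control library. They hold no spread of the control and may be smaller than counting error.

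**Figure D1:**
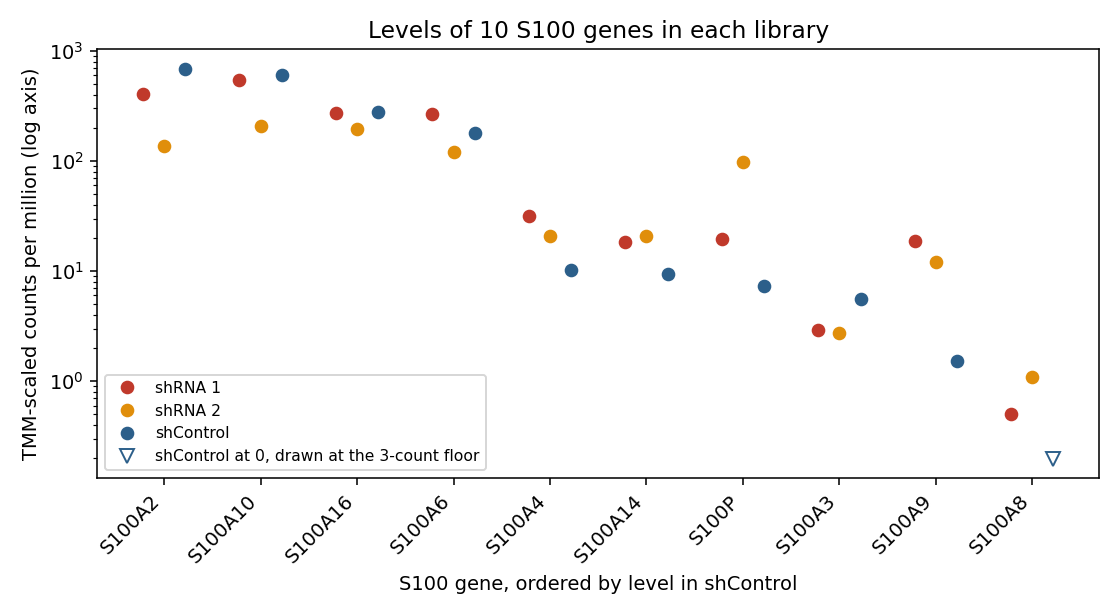
Scaled CPM (log axis) of the 10 S100 genes in the shRNA 1, shRNA 2 and shControl libraries, 1 point per library, ordered by the level in shControl; the open triangle stands for 0 counts and is drawn at the floor of 3 counts. S100A9, S100P, S100A4 and S100A14 lie above shControl with both hairpins, and S100A2 and S100A3 lie below it.

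S100A8 and S100A9 encode the subunits of calprotectin, a protein abundant in neutrophils and monocytes and induced in stressed or inflamed epithelium. S100A9 (ENSG00000163220; chromosome 1, 153357854 to 153361027, plus strand) had 336 counts with shRNA 1 and 210 with shRNA 2, against 23 in the control. Both hairpin libraries were far above the control, at 18.7 and 12.2 scaled CPM against 1.52. The ratio over the control was 12.3 with shRNA 1 (interval 8.09 to 19.7) and 8.03 with shRNA 2 (5.21 to 12.9), for a mean log2 fold of 3.22 ± 0.44 (SD, n = 2). It had the largest mean log2 fold of the 9 members past the filter. S100A8 (ENSG00000143546; 153390032 to 153391188, minus strand) had 9 counts with shRNA 1 and 19 with shRNA 2, against 0 in the control. Set against a floor of 3 counts in the control, the level of S100A8 was 2.54-fold higher with shRNA 1 and 5.57-fold higher with shRNA 2. These floor-based values leave out counting error. The counting intervals of the ratios over the control, taken without the floor, had lower limits of 1.67 with shRNA 1 and 4.10 with shRNA 2. S100A9 had more reads with shRNA 1 than with shRNA 2 after scaling, with a shRNA 2 over shRNA 1 ratio of 0.650 (0.545 to 0.775), whereas that ratio for S100A8 was 2.20 with an interval that included 1 (0.947 to 5.51). S100A12, the neighbouring gene of the same neutrophil group, had 0 counts in all 3 libraries.

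Blood cell markers were read for comparison, since neutrophils and monocytes make most calprotectin. Of 14 leukocyte markers, 3 passed the filter: CSF1R, ITGAM and CD14. The neutrophil and myeloid genes MPO, ELANE, FCGR3B and TYROBP were at 0 in all 3 libraries. PTPRC, the pan-leukocyte gene CD45, had 3, 4 and 0 counts with shRNA 1, with shRNA 2 and in the control. The neutrophil receptor gene CSF3R had 5, 2 and 7 counts in that order and the lysozyme gene LYZ 0, 2 and 5. The summed level of the 14 markers was 16.4 scaled CPM with shRNA 1, 48.7 with shRNA 2 and 102 in the control, and CSF1R (263, 518 and 1496 counts) and ITGAM (6, 288 and 19 counts) made up most of it. ITGAM, an integrin gene of myeloid cells, stood at 16.7 scaled CPM with shRNA 2, above the 12.2 of S100A9 in that library, and at 0.334 with shRNA 1, against 1.25 in the control. The part of such cells in the S100A9 values was not tested.

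S100P, which lies apart from the cluster on chromosome 4 (ENSG00000163993; 6693069 to 6697170), encodes an S100 protein first found in placenta that binds ezrin and is expressed in several carcinomas. It had 348 counts with shRNA 1 and 1697 with shRNA 2, against 110 in the control, or 19.4, 98.3 and 7.25 scaled CPM. Both hairpin libraries were above the control and shRNA 2 was well above shRNA 1. The ratio over the control was 2.67 with shRNA 1 (2.15 to 3.34) and 13.6 with shRNA 2 (11.2 to 16.6). The mean log2 fold of 2.57 ± 1.65 (SD, n = 2) carried the widest spread between hairpins among the members, and shRNA 2 stood 5.08-fold above shRNA 1 (4.52 to 5.71). S100P was the 1 member at least 2-fold higher with shRNA 2 than with shRNA 1, against 8.35% of all tested genes. The protein-coding genes on either side, AC093323.3 (log2 folds 0.17 with shRNA 1 and −0.27 with shRNA 2) and MRFAP1L1 (0.04 and −0.13), lay near the control.

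S100A4 (ENSG00000196154; chromosome 1, 153543613 to 153550136, minus strand) encodes a protein that binds non-muscle myosin heavy chain MYH9 and promotes cell motility. It had 566 counts with shRNA 1 and 359 with shRNA 2, against 155 in the control, or 31.5, 20.8 and 10.2 scaled CPM. Both hairpin libraries lay above the control, and shRNA 1 above shRNA 2 (shRNA 2 over shRNA 1 0.660, interval 0.577 to 0.755). The ratio over the control was 3.09 with shRNA 1 (2.58 to 3.71) and 2.04 with shRNA 2 (1.68 to 2.48), with a mean log2 fold of 1.32 ± 0.42 (SD, n = 2). With shRNA 2 its log2 fold of 1.02 sat at the 2-fold size, and was 0.98 with DESeq2's size factors and 0.96 with TMM factors from all genes with a count, and 1.22 with library totals. Its myosin partner MYH9 had log2 folds of −1.16 with shRNA 1 and −0.89 with shRNA 2, and did not pass edgeR's test (adjusted p = 0.509).

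The course of S100A4 was opposite to that of other mesenchymal genes, and this contrast was among the reasons for its choice. Of 43 listed mesenchymal genes without S100A4, 38 passed the filter. Of these 38, 33 passed the 2-fold size downward (30 with library totals), 0 passed it upward, and 5 did neither. The downward share was 86.8%, against 4.50% of all tested genes. Median log2 folds of the 38 were −2.66 with shRNA 1 and −2.60 with shRNA 2, against 0.01 and 0.04 for all tested genes. S100A4 lay 4.27 above the list's median with shRNA 1 and 3.61 above it with shRNA 2. It ranked 1 of 39 with either hairpin, S100A4 included. The nearest genes were AXL, a receptor tyrosine kinase gene (log2 folds −0.48 and 0.24), and the transcription factor gene TWIST1 (−0.20 and −0.48). They were followed by TNC (−1.34 and −0.57), TPM2 (−0.53 and −1.68) and COL6A1 (−0.96 and −1.26).

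At the other end stood the gelatinase genes MMP2 and MMP9, the N-cadherin gene CDH2 and the matrix gene TGFBI. MMP2 had 202 counts with shRNA 1, 48 with shRNA 2 and 9383 in the control, and CDH2 had 125, 22 and 3277. TGFBI had 4253, 1261 and 80654 counts in the same order. MMP9 had 38, 25 and 1275 counts, and was the 1 gene of the list to pass edgeR's test of both hairpins against the control over all genes (log2 fold −5.55, adjusted p = 0.0458). That call was lost without the low-expression filter (edgeR adjusted p = 0.747) and with the filter at 5 CPM (0.0513), and the range over the alternatives was 0.0349 to 0.747. The intermediate filament gene VIM was lower with both hairpins as well (−3.08 and −5.79), as were the EMT transcription factor genes SNAI1 (−2.65 and −2.94), SNAI2 (−2.38 and −1.18), ZEB1 (−3.30 and −2.16) and ZEB2 (−2.44 and −2.92). These 5 genes, FN1 and the genes nearest to S100A4 were chosen after their values were seen. The same test passed 6 of 15132 genes (0.0397%), all lower. With 1 residual degree of freedom, all of it from the shRNA 1 and shRNA 2 pair, the test takes the single control to vary as that pair does. At an unadjusted p below 0.05 it named 33 mesenchymal genes, and 10.2% of all tested genes were at that level. With DESeq2 23 mesenchymal genes passed the adjusted threshold, all lower, as did 3.49% of all tested genes in either direction, and limma passed 0 genes of any list. The counts by these tests given for the lists below are to be set against the same shares. All the lists, the mesenchymal list included, were drawn up with earlier results of these data known. The shares, counts and p-values of their genes are therefore descriptive and give no independent support. FN1, the fibronectin gene, held 303700 counts with shRNA 1, 271305 with shRNA 2 and 908025 in the control.

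Fibroblast markers were read beside these values. Of 10 markers of fibroblasts and smooth muscle, 4 passed the filter, with 0 past the 2-fold size upward and 2 downward. The downward share was 50%, against 4.50% of all tested genes. COL1A2 and COL3A1 are on the mesenchymal list too. COL1A2 had 0, 1 and 16 counts with shRNA 1, with shRNA 2 and in the control, COL3A1 0, 1 and 20, and DCN 2, 1 and 2. The summed level of the list was 4.62 scaled CPM with shRNA 1, 11.2 with shRNA 2 and 23.8 in the control. FAP (8, 21 and 102 counts) and PDGFRB (15, 31 and 152) made up most of the control's sum, whereas ACTA2, the smooth muscle actin gene, had 38, 107 and 38 counts and was higher with shRNA 2 (log2 fold 1.27). Their part in the S100A4 values was not tested. Of 8 endothelial markers, 2 passed the filter (CDH5 and KDR), 0 of them past the 2-fold size with both hairpins in the same direction, and their list summed to 3.95, 9.04 and 5.01 scaled CPM in the same order.

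**Figure D2:**
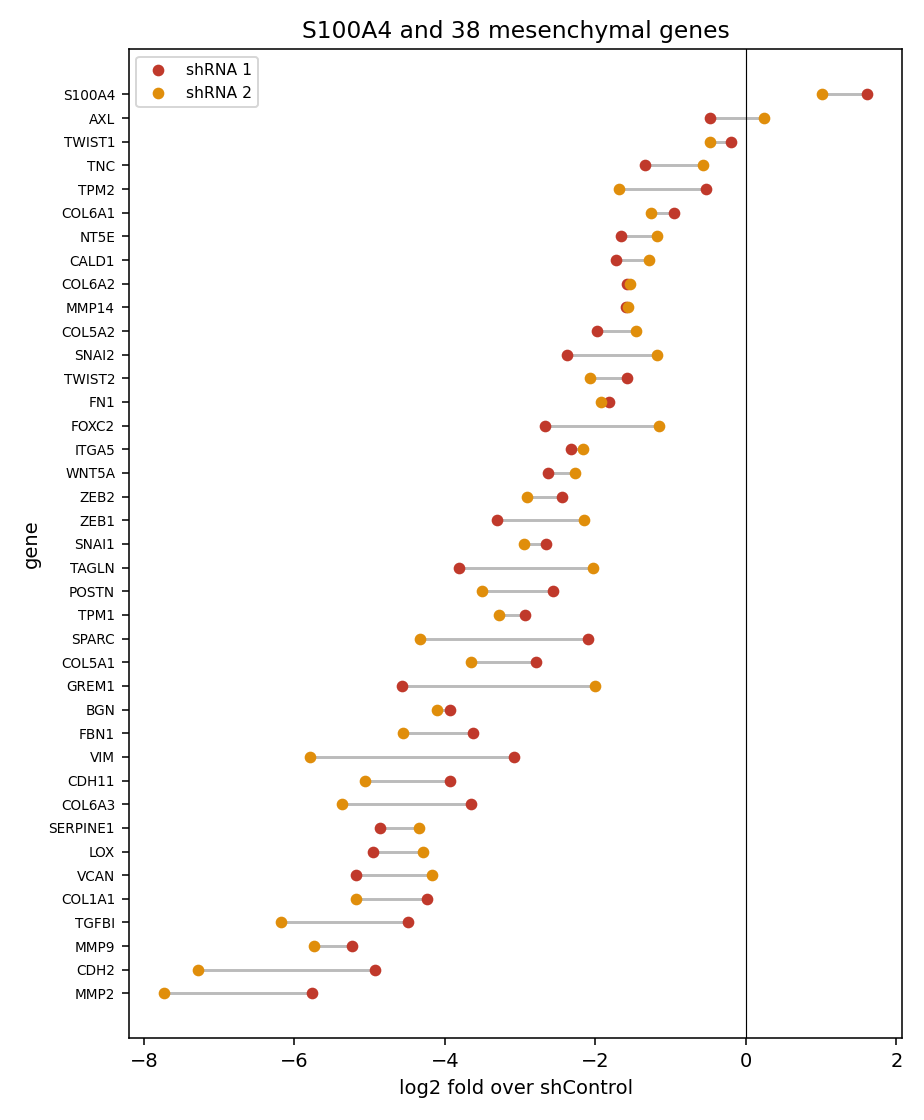
Log2 folds over shControl (x axis) of S100A4 and the 38 mesenchymal genes past the filter (y axis), 1 point per hairpin library, joined by a line, ordered by the mean. S100A4 lies at 1.61 with shRNA 1 and 1.02 with shRNA 2, to the right of all 38 genes, whose medians are −2.66 and −2.60.

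Among 9856 protein-coding genes averaging 10 CPM or more, the 5 nearest to S100A4 by the distance between their pairs of log2 folds were ZNF480, PLEKHH1, MYEF2, CCDC18 and LPIN1. Their distances ran from 0.02 to 0.12 on the log2 scale, over 3 libraries that share 1 control. LPIN1, for example, had 1135 counts with shRNA 1 and 711 with shRNA 2, against 292 in the control. Both log2 folds were at or above those of S100A4 in 374 of the 15132 tested genes (2.47%), S100A4 included.

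S100A14 and S100A16 lie next to each other on the minus strand and encode family members of epithelial tissues. S100A14 (ENSG00000189334; 153614255 to 153616986) had 327 counts with shRNA 1 and 363 with shRNA 2, against 144 in the control. Both hairpin libraries were higher, with ratios of 1.92 (1.57 to 2.35) and 2.22 (1.82 to 2.71), and the mean log2 fold was 1.04 ± 0.15 (SD, n = 2). With shRNA 1 its log2 fold of 0.93 was just under the 2-fold size, and with library totals as the scaling it was 1.07. The neighbour S100A16 (ENSG00000188643; 153606886 to 153613145) was expressed far more highly and differed less, with 4882 and 3354 counts against 4226. Its ratio was 0.976 with shRNA 1 (0.937 to 1.02), which includes no difference, and 0.698 with shRNA 2 (0.667 to 0.731).

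Epithelial genes gave the setting of S100A14. All 25 listed epithelial genes passed the filter. With both hairpins 8 (32%) passed the 2-fold size upward and 1 (4%) downward, against 5.29% and 4.50% of all tested genes. Median log2 folds of the 25 were 0.92 with shRNA 1 and 0.75 with shRNA 2. GRHL3, a transcription factor gene of surface epithelia, had 3.33 and 3.16, the tight junction gene CLDN3 3.03 and 3.02, and ELF3, an epithelial transcription factor gene, 2.80 and 2.58. The 1 gene past the size downward was the desmosomal gene DSP, with −2.47 and −1.92. Log2 folds were above 0 for 21 of the 25 genes with shRNA 1 and for 19 with shRNA 2, and the keratin genes KRT18 (−0.25 and −0.52) and KRT7 (−0.22 and −0.78) were among those below 0 with both. No gene of the list passed edgeR's test over all genes. Of the 25, 10 were at an unadjusted p below 0.05, 6 passed with DESeq2 (5 higher and 1 lower) and 0 with limma.

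S100A2, an S100 protein of basal and squamous epithelium that binds p53, was the second most abundant S100 gene of the control per length of exon. S100A2 (ENSG00000196754; 153561108 to 153567890, minus strand) had 7285 counts with shRNA 1 and 2366 with shRNA 2, against 10407 in the control, or 406, 137 and 686 scaled CPM. Both hairpin libraries were lower, and shRNA 2 was the lower of them. S100A2 was 1.69-fold lower with shRNA 1 (ratio 0.592, interval 0.574 to 0.610) and 5.00-fold lower with shRNA 2 (ratio 0.200, interval 0.191 to 0.209). This gave a mean log2 fold of −1.54 ± 1.11 (SD, n = 2). The basal transcription factor gene TP63 was lower with both hairpins (8 and 13 counts against 85), while log2 folds of the basal keratin gene KRT5, also chosen with its values in view, were 0.00 with shRNA 1 and −1.90 with shRNA 2. Both are among 22 squamous and cornified envelope genes past the filter, which had no common course. Log2 folds were above 0 for 6 of the 22 with shRNA 1 and for 11 with shRNA 2, with medians of −0.24 and 0.01.

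S100A10, or p11, forms a tetramer with annexin A2 at the inner face of the cell membrane, where it binds AHNAK and serves plasminogen activation. S100A10 (ENSG00000197747; 151982915 to 151994390, minus strand) had 9721 counts with shRNA 1 and 3601 with shRNA 2, against 9094 in the control. It stood near the control with shRNA 1 (ratio 0.903, interval 0.878 to 0.930) and 2.87-fold lower with shRNA 2 (ratio 0.348, 0.335 to 0.362). With library totals the log2 fold with shRNA 1 was −0.01 in place of −0.15, so no direction is given for that hairpin. The gene of its partner, ANXA2, had 48305 and 33077 counts against 37469, with log2 folds of 0.12 and −0.37. AHNAK, a giant scaffold protein gene, had 1.09 and −0.01, and PLAT, the tissue plasminogen activator gene, was at least 2-fold higher with both (1.63 and 1.22).

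S100A6, or calcyclin, a protein of proliferating cells that binds CACYBP, was the member past the filter that went opposite ways. S100A6 (ENSG00000197956; 153534599 to 153536244, minus strand) had 4827 counts with shRNA 1 and 2083 with shRNA 2, against 2746 in the control. It was 1.49-fold higher with shRNA 1 (1.42 to 1.56) and lower with shRNA 2 (ratio 0.667, interval 0.630 to 0.707), so the mean log2 fold of −0.01 ± 0.82 (SD, n = 2) describes neither library. Those opposite signs held with DESeq2's size factors (0.55 and −0.62) and with library totals (0.71 and −0.38). CACYBP, its binding partner, had log2 folds of 0.07 with shRNA 1 and −1.41 with shRNA 2.

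S100A3, best known from the hair cuticle, was the least abundant member past the filter with either hairpin. S100A3 (ENSG00000188015; 153547329 to 153549372, minus strand) had 52 counts with shRNA 1 and 47 with shRNA 2, against 85 in the control. Both hairpin libraries were lower by about the same amount, with ratios of 0.517 (0.359 to 0.739) and 0.486 (0.333 to 0.702) and a mean log2 fold of −0.97 ± 0.06 (SD, n = 2). S100A3 lies within the span of S100A4, on the same strand, inside an intron of the S100A4 transcript with the most distant start. The genes share 0 exon bases in GENCODE release 29, so their counts are of separate exons, and S100A3 was lower in the libraries in which S100A4 was higher.

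**Figure D3:**
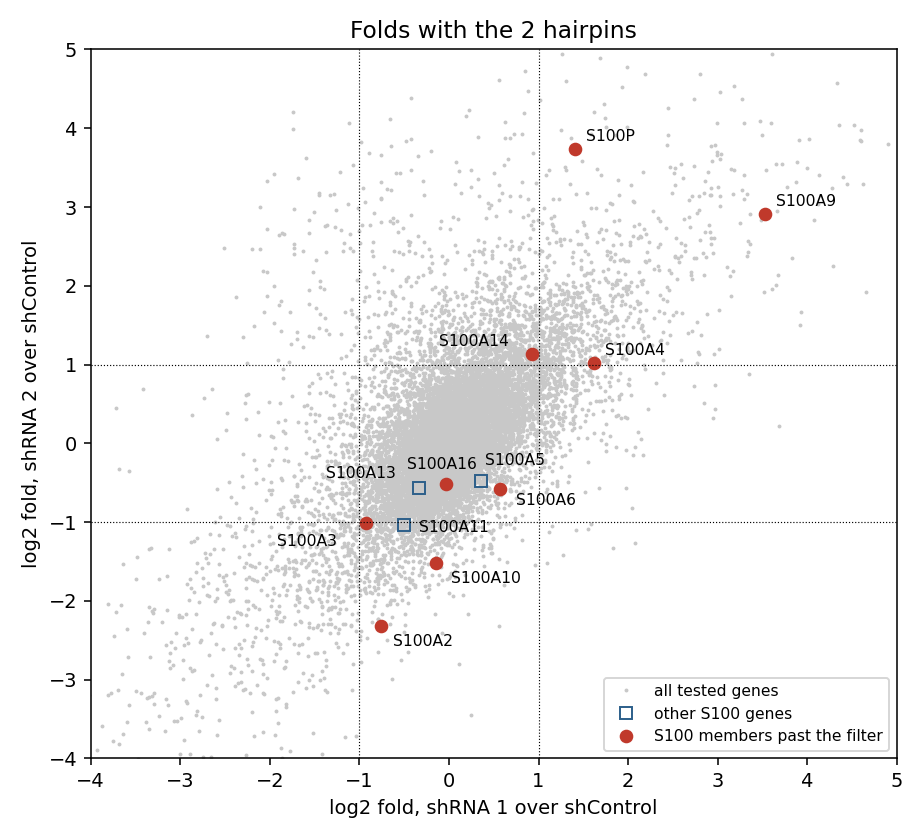
Log2 folds over shControl with shRNA 1 (x axis) and shRNA 2 (y axis) of all 15132 tested genes (grey, and genes past the axis limits are not drawn), the 9 S100 members past the filter (filled) and 3 other S100 genes (open squares); dotted lines mark the 2-fold size. S100A9, S100P and S100A4 lie in the upper right field, and S100A2 and S100A10 lie low on the shRNA 2 axis.

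The hairpin libraries differed from each other in the abundant members. After scaling, 7 of the 9 members past the filter were lower with shRNA 2 than with shRNA 1, the exceptions being S100P and S100A14, against 49.7% of all tested genes. For S100A3 (ratio 0.941, interval 0.620 to 1.42) and S100A14 (1.16, 0.992 to 1.35) the interval included 1, so these differences were within counting error. Such intervals were not counted over all tested genes, so no count of members by that mark is given. S100A2 (ratio 0.338, interval 0.323 to 0.354), S100A10 (0.386, 0.371 to 0.401) and S100A6 (0.449, 0.426 to 0.473) were at least 2-fold lower with shRNA 2 than with shRNA 1, against 4.48% of all tested genes. Against the control, S100A2, S100A10 and S100A3 were at least 2-fold lower with shRNA 2, against 8.76% of tested genes, and 0 members were so with shRNA 1, against 7.38%. S100A3 was at the edge of the size with −1.01, and was under it with library totals (−0.81) and with the filter at 5 CPM (−0.97). On the higher side, 4 members passed with shRNA 2, against 13% of tested genes (1962 of 15132), and 3 with shRNA 1, against 7.92%. Each hairpin has 1 library, so this difference has no replicate check.

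Of the 11 other S100 genes, 3 passed the filter. S100A11, a keratinocyte protein that binds annexin A1, was the most abundant S100 gene of every library, with 10134 counts with shRNA 1, 6766 with shRNA 2 and 12164 in the control. Its ratio over the control was 0.704 with shRNA 1 (0.686 to 0.723) and 0.489 with shRNA 2 (0.475 to 0.504), lower with both. S100A13, a copper-binding protein involved in growth factor release, had 158 and 129 counts against 169, and S100A5 had 37 and 19 against 24. None of these 3 passed edgeR's test over all genes, with DESeq2 or with limma, and 0 were at an unadjusted p below 0.05. S100A7 (psoriasin) had 4 and 7 counts against 1, S100A1 7 and 9 against 8, S100A7A 2 and 0 against 0, and S100G 1 and 0 against 0. S100B, S100A12, S100Z and S100A7L2 were at 0 in all 3 libraries. S100A1 and S100A13 share 235 exon bases on opposite strands, and the strand setting of the counting is not given in the sources used here, so their reads may not be separable.

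Levels were compared between genes as scaled CPM per kilobase of merged exons. In the control the order began with S100A11 (1178), S100A2 (438), S100A10 (388), S100A6 (186) and S100A16 (164), each apart from the next beyond counting error, and S100A4 followed at 9.96. S100A4, S100A14, S100A3, S100P and S100A13 formed a run in which each gene's counting interval overlapped that of the next, and S100A9 stood at 2.63. With shRNA 1 the order was S100A11 (830), S100A10 (351), S100A6 (277), S100A2 (259), S100A16 (160), S100A9 (32.4) and S100A4 (30.7), and the intervals of S100A9 and S100A4 overlapped. With shRNA 2 it was S100A11 (576), S100A10 (135), S100A6 (124), S100A16 (114), S100A2 (87.5) and S100P (76.8), with S100A9 (21.1), S100A4 (20.3) and S100A14 (16.5) close together after them. S100A9 thus ranked 6 of 21 S100 genes with shRNA 1 and 7 with shRNA 2, against 11 in the control. S100P ranked 8 with shRNA 1 and 6 with shRNA 2, against 9 in the control.

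The choice of length matters for this order. The deposited FPKM of 86.7% of 14017 genes matched, within 1%, a gene length equal to the sum of all distinct annotated exons, in which overlapping exons of different transcripts count more than once. Relative to merged exons that length was 1.52 times as long in the median gene. For S100A9 and S100A11 the 2 lengths agreed (577 and 680 bases), but for S100A4 the length was 2005 in place of 1025 bases and for S100A2 2947 in place of 1567. Deposited FPKM therefore ranked S100A2 (215 in the control) below S100A10 (252), the reverse of the order per merged exon. It ranked S100P 3 with shRNA 2, against 7 in the control, in place of 6 against 9. Folds between libraries are not touched by it.

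Summed over all 21 S100 genes, the family took 0.219% of the counts with shRNA 1, 0.130% with shRNA 2 and 0.240% in the control. Over the 10 members the summed level was 1578 scaled CPM with shRNA 1, 817 with shRNA 2 and 1778 in the control. The members that were higher with both hairpins were minor contributors. S100A9, S100P and S100A4 made up 1.64%, 0.765% and 1.55% of the family's level per merged exon with shRNA 1 and 1.78%, 6.50% and 1.72% with shRNA 2, against 0.110%, 0.237% and 0.416% in the control.

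**Figure D4:**
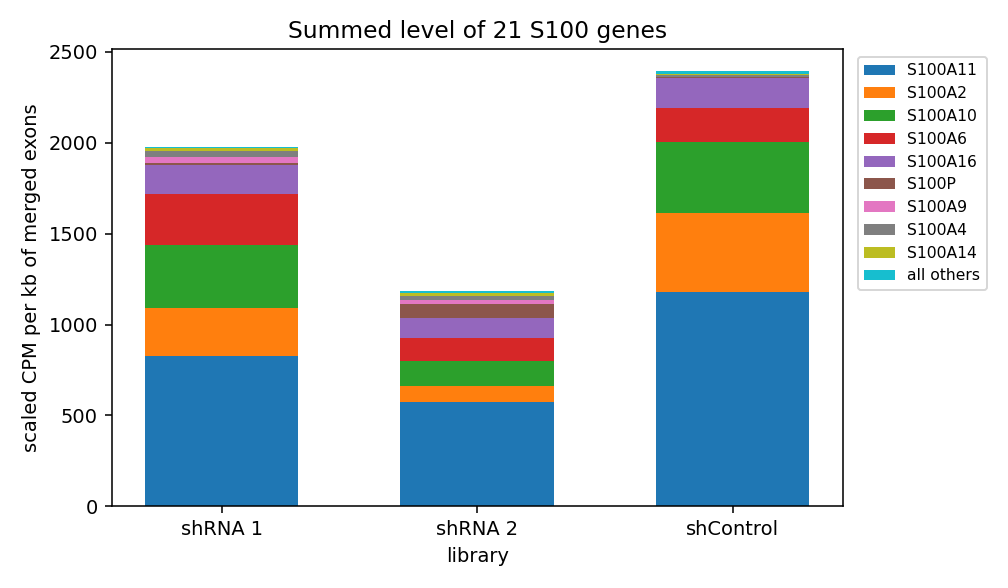
Scaled CPM per kilobase of merged exons, summed over 21 S100 genes (y axis, from 0) for the shRNA 1, shRNA 2 and shControl libraries, 1 library per bar, split by gene. S100A11 is the largest part of each bar (41.9%, 48.8% and 49.2%), and the shRNA 2 bar is the lowest.

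The chromosome 1 genes lie in 2 runs. S100A10 and S100A11 lie together within 65.0 kb, and the other genes of the cluster lie within 274 kb, from S100A9 to S100A1, after a gap of 1310 kb. Within that second run, members higher with both hairpins lay on either side of lower ones. S100A9 and S100A8 at one end were higher with both hairpins, then came S100A6 with opposite signs, S100A4 higher, S100A3 and S100A2 lower, S100A16 near the control or lower, and S100A14 higher again. S100A5, between S100A6 and S100A4, had 0.36 and −0.48. Beside the first run, THEM4 had 70 and 107 counts against 115, and TCHHL1 had 9 and 9 against 5. Beside the second, CHTOP, an mRNA export factor gene 1.94 kb past S100A1, had log2 folds of 0.14 and 0.20, and PGLYRP4, on the other side, had 1, 3 and 1 counts with shRNA 1, with shRNA 2 and in the control.

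**Figure D5:**
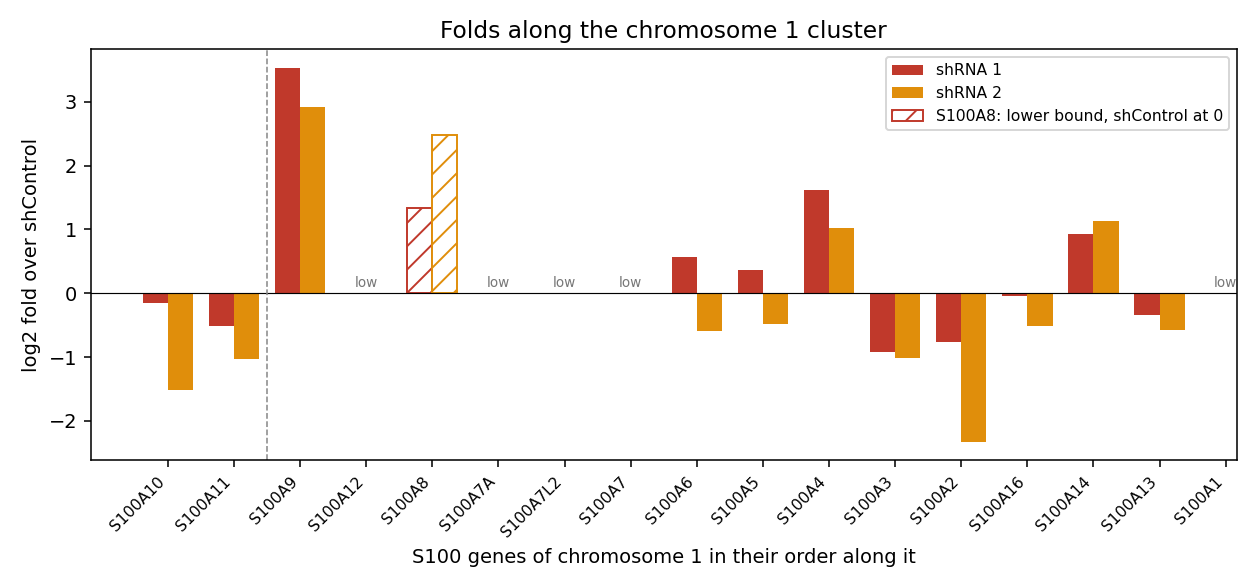
Log2 folds over shControl (y axis) of the chromosome 1 S100 genes in their order along the chromosome (x axis, not to scale). Each hairpin library has 1 bar per gene. The dashed line marks the gap between the 2 runs, and "low" marks genes under the filter. Hatched bars are folds over a floor of 3 counts in shControl and leave out counting error. S100A9 and S100A4 are above 0 with both hairpins, and S100A3 and S100A2, next to S100A4, are below it.

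Known receptors and partners of S100 proteins had mixed directions with shRNA 1 and lay mostly below the control with shRNA 2. Of 25 listed genes, 22 passed the filter, with median log2 folds of −0.04 with shRNA 1 and −0.30 with shRNA 2. Log2 folds were above 0 for 10 of the 22 with shRNA 1 and for 5 with shRNA 2. Of all 15132 tested genes, 7643 and 7950 were above 0 in that order. TRPV6 and PLAT passed the 2-fold size upward (9.09%, against 5.29% of all tested genes) and KCNK3 downward (4.55%, against 4.50%). TRPV6, a calcium channel carried to the membrane by S100A10 with annexin A2, had 1841 counts with shRNA 1 and 2369 with shRNA 2, against 414 in the control. KCNK3, a potassium channel that also binds S100A10, had 523 and 579 counts against 1528. Receptor genes differed in level and direction. AGER had 51 and 33 counts against 45, and TLR4 had 204 and 88 against 177. CD36, a scavenger receptor gene under the filter, had 6 and 32 against 5. BSG, a surface glycoprotein gene, had 3491 and 2527 against 3138, and ALCAM, a cell adhesion gene, had 8901 and 6545 against 9716. In this list 0 genes passed edgeR's test over all genes, while 3 were at an unadjusted p below 0.05, 3 passed with DESeq2 and 0 with limma. These 5 receptor genes were chosen after their values were seen.

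Of 12 annexins 10 passed the filter, with medians of 0.01 and −0.26. ANXA9 passed the 2-fold size upward (524 and 324 counts against 66) and ANXA6 downward (272 and 112 against 1062). That is 10% in each direction, against 5.29% and 4.50% of all tested genes. ANXA1, a partner of S100A11, had log2 folds of 0.26 and −0.42, and ANXA11, a partner of S100A6, had 0.81 and 0.57. No annexin passed edgeR's test, 3 were at an unadjusted p below 0.05, 2 passed with DESeq2 and 0 with limma. Among 24 other EF-hand genes 21 passed the filter, with medians of −0.06 and −0.32. The buffer protein gene CALB1 was the 1 gene at least 2-fold higher with both (2672 and 1403 counts against 541). That is 4.76% of the 21, against 5.29% of all tested genes. None of the EF-hand genes passed edgeR's test, with 2 at an unadjusted p below 0.05, 1 past DESeq2's threshold and 0 past limma's.

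Stratified epithelial genes were read as well, since several S100 genes are expressed with them. Of 33 listed squamous and cornified envelope genes, 22 passed the filter, 2 passed the 2-fold size upward (SCEL and KRT4; 9.09%, against 5.29% of all tested genes) and 5 downward (22.7%, against 4.50%), among them TP63 and the desmosomal gene PKP1 (99 and 176 counts against 1026). SCEL, the sciellin gene, had 115 and 189 counts against 0. None passed edgeR's test, 6 were at an unadjusted p below 0.05, 4 passed with DESeq2 and 0 with limma. Of 7 S100-fused genes, which carry an S100 domain at the start of a large epidermal protein, 2 passed the filter. TCHH, the trichohyalin gene, was at least 2-fold higher with both (179 and 203 counts against 47), as were 5.29% of all tested genes. FLG, the filaggrin gene, had 11 and 86 counts against 7. Neither passed edgeR's test, 1 was at an unadjusted p below 0.05, and 0 passed with DESeq2 or limma.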

How the data were processed

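Polyadenylated RNA of 3 UM-UC-3 libraries was sequenced with a stranded mRNA kit, per the labels' protocols. The deposited table gives whole-number read counts and FPKM, both made by the authors, 1 column of each per library. TopHat2 2.0.9 and hg38 are named, per the submitters' processing notes. Neither the counter and its strand setting nor the annotation release is stated (not given in the sources used here). One row broken over several lines was left out (50871 lines, 50867 genes).

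Genes averaging 1 CPM or more (15132) were scaled with TMM factors (1.02 for shRNA 1, 1.06 for shRNA 2 and 0.924 for the control). Log2 folds are differences of log2 CPM (prior count 2). The test was edgeR 4.0.16's quasi-likelihood test of both hairpins against the control, two-sided, Benjamini-Hochberg adjusted p below 0.05, with R 4.3.3. Intervals of ratios are exact conditional binomial and those of levels exact Poisson, at 95%. In a trial on simulated counts only the recovery of planted fold changes was required, so it does not speak to the test's error rate. DESeq2 1.42.0 and limma 3.58.1 were alternatives.

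Exon positions and gene types come from GENCODE release 29. The members and the 13 lists were chosen with earlier results of these data known. Genes named by rule were all S100 genes, ANXA1, ANXA2, ANXA11, AHNAK and CACYBP, up to 4 genes past the 2-fold size per list (otherwise the 2 of highest mean), the coding neighbours of the S100 runs, and the 5 genes nearest to S100A4.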

Additional observations from a re-analysis of the deposited data

How the results depend on the processing

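The count of S100 members at least 2-fold higher with both hairpins was 2 to 4 under the alternatives run, against 3. S100A4 was under that size with DESeq2's size factors and without the low-expression filter, where S100A8 then counted, and S100A14 was over it with library totals. Members at least 2-fold lower with both hairpins numbered 0, but 2 at a size of 1.5-fold; with 1 hairpin left out they numbered 0 to 3 and members higher 3 to 4. The S100A4 fold lay 3.94 above the median of the mesenchymal genes on the log2 scale, and 3.61 to 4.27 with 1 hairpin left out, with 34 to 35 mesenchymal genes then at least 2-fold lower. Across all genes, 1481 were at least 2-fold away with both hairpins, against 2805 without the filter, 979 with it at 5 CPM, 2966 at a size of 1.5-fold and 2315 to 3287 with 1 hairpin left out. edgeR's test passed 6 genes, against 0 without the filter (1461 at an unadjusted p below 0.05), 0 with it at 5 CPM (1240), 0 with limma (1560) and 528 with DESeq2. The cause was not tested. Scaling by library totals moved the genome-wide median to 0.14 with shRNA 1 and 0.24 with shRNA 2 (log2), from TMM's 0.01 and 0.04, and gave 1030 genes higher and 553 lower in place of 800 and 681. By deposited FPKM, S100A2 ranked 3 in the control in place of 2, and S100P 3 with shRNA 2 in place of 6. The FPKM ranking and the settings run on the difference between hairpins were added after the data were seen. Those settings left 3 members at least 2-fold lower with shRNA 2 than with shRNA 1. No paired analysis was possible because the control has 1 library. S100A8 and S100A3 are limited by low counts.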

Other observations

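Between the S100A11 and S100A9 genes on chromosome 1 lie 45 protein-coding genes of the epidermal cluster, and 23 of them were at 0 throughout while 8 passed the filter. Several of its late cornified envelope genes, chosen after their values were seen, were high in the library labelled shRNA 2 alone. LCE1C had 15 counts with shRNA 1 and 305 with shRNA 2, against 33 in the control. LCE1B had 1 and 121 against 9, LCE1E 3 and 112 against 14, and LCE1F 2 and 71 against 5. The repeat protein gene HRNR, which carries an S100 domain, had 3 and 34 counts against 1. IVL, the involucrin gene of the same stretch, was lower with both hairpins (549 and 284 counts against 1236). S100A9, at the edge of this stretch, was high with both hairpins and higher with shRNA 1 than with shRNA 2. Whether these genes share a course cannot be tested with 1 library per hairpin.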
